A study of Mus musculus with 14 samples.

Results

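Mouse amino acid transporter genes of 7 solute carrier families (Slc1, Slc3, Slc6, Slc7, Slc36, Slc38 and Slc43) were followed across 14 arrays of partially reprogrammed, reprogrammed and control cells. A gene was a member if its symbol on the array platform named one of these families, and each gene was read by its brightest probe set over the 14 arrays. The rule used no difference between groups, but the members were chosen with earlier results of these data known. It gave 58 of the 18193 genes on the array, read by 118 probe sets. Of the 58 genes, 37 were bright enough to be tested and 21 were dim. A gene was dim unless at least 2 of the 14 arrays reached 5.42 on the log2 scale, the median of all values. By family, the tested members were 9 of 9 in Slc38, 10 of 15 in Slc7, 7 of 18 in Slc6, 4 of 7 in Slc1, 3 of 4 in Slc36, 3 of 3 in Slc43 and 1 of 2 in Slc3.

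Amino acids cross the cell membrane through such carriers. Slc38 proteins bring in small neutral amino acids with sodium, and Slc36 proteins move such amino acids, some of these carriers with protons. Slc7 proteins exchange amino acids or carry cationic ones, several of them joined to a heavy chain of the Slc3 family. Slc1 holds glutamate and neutral amino acid carriers, Slc6 the carriers of amino acids, neurotransmitters and related compounds, and Slc43 carriers of large neutral amino acids and a related carrier. Pluripotent stem cells depend on the uptake of particular amino acids, and several carriers are targets of the transcription factor ATF4, which acts when amino acids are short.

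Partial iPSCs are cells from a reprogramming experiment that have not reached the state of induced pluripotent stem cells (iPSCs). The 2 partial clones, 2B1 and 5C5 (female, C57BL/6), grew in LIF and serum, and each gave 1 untreated array and 1 array of iPSCs obtained by exposing that clone to 2i, in which MEK and GSK3 are inhibited (2i iPSCs). Embryonic stem cells (ESCs) came from Nanog-GFP transgenic mice (male, C57BL/6) and from the wild-type line EBRTcH3 (male, 129sv). Both were grown in LIF and serum and gave 1 array each. Fibroblasts of mouse embryos (MEFs) from Nanog-GFP transgenic mice (mixed sex, C57BL/6, without LIF) gave 1 array, and their age is 12.5 dpc in the sample title and 13.5 dpc in the series text. The remaining 7 arrays held 2B1 partial iPSCs, in LIF and serum, that carried empty vector, Cnot1, Cnot2, Cnot3, Trim28, Cnot1 with Cnot2 and Cnot3 (Cnot123), or Nanog, with 1 array for each. The Cnot and Trim28 cDNAs were brought in by retrovirus, and empty vector and Nanog were stably integrated. The Cnot proteins belong to Ccr4-Not, which shortens mRNA tails, and Trim28 is a corepressor. Medium, sex, strain and line differ between groups together with the cell state, so their parts cannot be told apart.

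Values are log2 RMA signals. Array means were 6.09 on the 7 untransduced arrays and 5.87 to 5.88 on the 7 transduced ones, and these 2 blocks were treated as separately normalized. The mean of 6 pluripotency markers was 12.27 to 12.65 on the 2i and ESC arrays, 6.03 to 6.14 in untreated partial iPSCs, 5.30 to 5.69 on the transduced arrays and 4.63 in MEFs. The mean of 8 fibroblast markers was 12.74 in MEFs, 9.94 to 10.05 in 2i iPSCs, 8.93 to 9.27 in untreated partial iPSCs, 7.02 to 7.92 on the transduced arrays and 4.65 to 4.76 in ESCs. The 2 arrays of a group hold 2 clones or 2 lines, and the spread behind each p-value is that between clones or lines. Fewer cells of a type and less RNA per cell cannot be told apart in such bulk RNA. The tests used limma on 6 arrays, with p-values adjusted over all 12663 tested genes and a call at an adjusted p below 0.05.

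Of the 37 tested members, 4 (10.8%) were called between 2i and partial iPSCs, against 6.00% of all tested genes. Slc38a4 and Slc38a7 rose (5.41% of members, against 3.55% of all genes) and Slc38a5 and Slc7a6 fell (5.41%, against 2.46%). Between ESCs and partial iPSCs, 7 members (18.9%) were called, against 15.9% of all genes. Slc38a4, Slc7a7, Slc38a3 and Slc36a1 were higher in ESCs (10.8%, against 6.09%), and Slc38a5, Slc36a4 and Slc7a6 were lower (8.11%, against 9.82%). Between 2i iPSCs and ESCs, only Slc36a4 was called (2.7%, against 3.85% of all genes). It was higher under 2i, as were 3.69% of all genes, while 0.158% were lower. These shares lay close to the background in the comparisons with ESCs. The median member difference was 0.31 for 2i against partial iPSCs (26 of 37 above 0), 0.07 for ESCs against partial iPSCs (19 above 0) and 0.18 for 2i against ESCs (24 above 0), beside medians of 0.03, 0.00 and 0.00 over all tested genes. The first and the second comparison share the partial arrays.

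**Figure D1:**
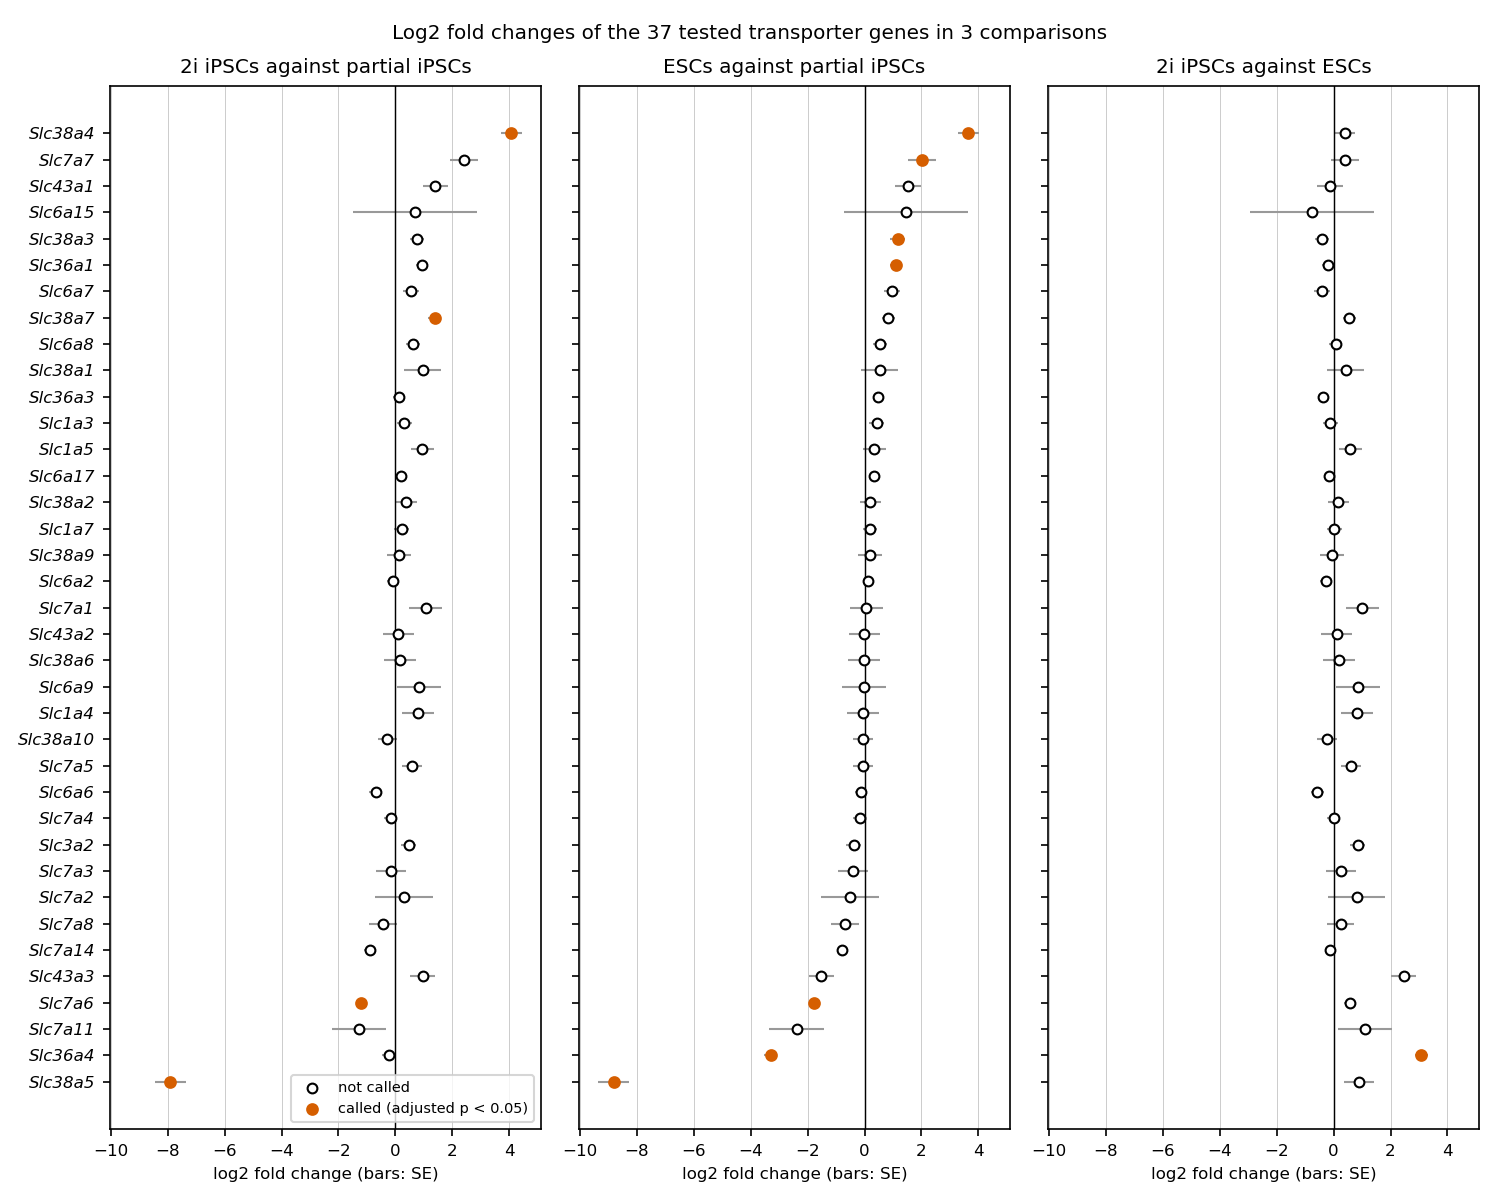
Log2 fold changes (points) with limma SE (bars) of the 37 tested transporter genes in the 3 comparisons, on a shared log2 axis, with 2 arrays per group and called genes filled. Slc38a5 lies at -7.91 and -8.80 in the comparisons with partial iPSCs, Slc38a4 at 4.07 and 3.65, and Slc6a15 has the widest bars (SE 2.17).

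Slc38a5, a sodium-coupled carrier of glutamine, serine and other small neutral amino acids, had the largest fall of all members. Its signal was 12.82 in untreated 2B1 and 14.08 in untreated 5C5, against 5.04 and 6.02 in their 2i iPSCs, 4.87 in Nanog-GFP ESCs, 4.42 in EBRTcH3 ESCs and 4.27 in MEFs. On the transduced 2B1 arrays it was 13.61 with empty vector, 12.27 with Cnot1, 12.71 with Cnot2, 12.71 with Cnot3, 13.24 with Trim28, 12.18 with Cnot123 and 13.44 with Nanog. All 9 partial iPSC arrays were high and the other 5 were low, with no overlap. The gene fell from 13.45 ± 0.89 (SD, n = 2) to 5.53 ± 0.69 under 2i, by 7.91 (241-fold, SE 0.54, limma adjusted p = 0.00461). It was 8.80 lower in ESCs than in partial iPSCs (log2 fold change -8.80, SE 0.54, adjusted p = 0.00164). Both calls held under every alternative run, though the 2i call came close to the threshold at its weakest. Between 2i iPSCs and ESCs it differed by 0.89 (95% interval -0.48 to 2.25, adjusted p = 0.512). The upstream sequence of this gene is shown because it had the largest change. It covers 160 bases before to 20 after the annotated start on the plus strand, chrX:8271221-8271400 of GRCm38.p6 (RefSeq), with the E-box CACGTG, which begins 30 bases before the start, in capitals.
Slc38a5 promoter: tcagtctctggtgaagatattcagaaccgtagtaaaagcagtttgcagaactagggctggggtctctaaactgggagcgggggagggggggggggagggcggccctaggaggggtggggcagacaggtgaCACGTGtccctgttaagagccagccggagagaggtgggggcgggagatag
The E-box was searched on both strands in windows from 250 bases before to 50 after each start. It was found for 9 of the 41 members with a window (22%), against 8.09% of 27025 genes, and in 9 of 62 member windows (14.5%), against 7.15% of 32851.

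Slc38a4, a carrier of neutral and cationic amino acids whose gene is imprinted in the mouse, ran the opposite way. It read 6.44 and 6.24 in untreated 2B1 and 5C5, 10.51 and 10.31 in their 2i iPSCs, 10.48 and 9.51 in Nanog-GFP and EBRTcH3 ESCs and 8.99 in MEFs. The 2 untreated partial arrays were the lowest of the 7, well apart from the rest. The rise under 2i was 4.07 (16.7-fold, SE 0.36, limma adjusted p = 0.00793), and the ESC difference was 3.65 (12.6-fold, SE 0.36, adjusted p = 0.00447). Its other probe set gave 3.57 and 2.51. The 2i call was lost without either 2i array (adjusted p = 0.0987 without that of 2B1 and 0.093 without that of 5C5). On the transduced arrays Slc38a4 lay between 3.07 and 3.74, close to the 25th percentile of the arrays (3.55 to 3.89), where signal cannot be told from background.

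Slc38a7, a carrier of glutamine and asparagine found at lysosomes, read 7.49 and 7.22 in the untreated clones, 8.76 and 8.73 under 2i, 7.99 and 8.40 in ESCs and 8.32 in MEFs. On the transduced arrays it lay between 6.53 and 6.79. The untreated clones were again the lowest of the untransduced arrays, and the rise under 2i was 1.38 (SE 0.23, limma adjusted p = 0.0343). With the clone as a replicate block this call was lost (adjusted p = 0.0872), as it was without any 1 of the 4 compared arrays (adjusted p 0.0738 to 0.253). Its ESC difference of 0.83 had an adjusted p of 0.0679. Slc38a3, a glutamine carrier that also takes asparagine and histidine, read 5.36 and 5.59 in the clones, 6.51 and 5.95 under 2i and 6.69 and 6.58 in ESCs. It was 1.16 higher in ESCs than in partial iPSCs (SE 0.25, adjusted p = 0.0393). Its other, dimmer probe set gave -0.07, and the call was lost with the mean of both (0.54, adjusted p = 0.14) and without any 1 array (0.0735 to 0.134).

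The general glutamine carriers Slc38a1 and Slc38a2 did not pass the test in any comparison. Slc38a1 read 9.18 and 10.61 in 2B1 and 5C5, 10.89 and 10.79 under 2i, 9.68 and 11.17 in Nanog-GFP and EBRTcH3 ESCs and 10.31 in MEFs. The difference between the 2 clones, and that between the 2 ESC lines, exceeded the difference of the group means (0.95 for 2i against partial iPSCs, SE 0.66, limma adjusted p = 0.455). Slc38a2, which cells raise when amino acids are short, read 11.44 and 11.86 in the clones, 11.98 and 12.08 under 2i, 11.39 and 12.34 in the ESC lines and 11.85 in MEFs. Its 2i difference was 0.38 (95% interval -0.54 to 1.30, adjusted p = 0.59). The groups of partial iPSCs and ESCs overlapped for both genes.

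Slc36a4, a high-affinity carrier of proline and tryptophan, set ESCs apart from both iPSC states. It read 7.88 and 8.26 in the untreated clones and 7.78 and 7.92 under 2i, against 4.63 and 4.91 in the ESC lines and 8.87 in MEFs. The ESC arrays were lowest of all 14, since the transduced arrays spanned 7.22 to 8.71. The difference was -3.30 for ESCs against partial iPSCs (9.86-fold, SE 0.23, limma adjusted p = 0.00201) and 3.08 for 2i iPSCs against ESCs (8.43-fold, SE 0.23, adjusted p = 0.00437). Between 2i and partial iPSCs it was -0.23 (95% interval -0.80 to 0.35). The call against 2i iPSCs was lost without either 2i array (adjusted p = 0.0698 and 0.0866). The fibroblast markers moved with it in the 2 called comparisons: 7 of 8 were called lower in ESCs than in partial iPSCs and 8 of 8 higher in 2i iPSCs than in ESCs. In MEFs against the clones both were higher too (marker median 3.70, Slc36a4 0.99 and 0.61). The marker median was 1.22 for 2i against partial iPSCs, where Slc36a4 differed by -0.23. With Cnot123 against empty vector it was 1.09 (Slc36a4 -1.50), and with empty vector against untreated 2B1 -3.20 (Slc36a4 0.83). The part of these markers in this result was not tested.

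Slc36a1, the lysosomal and surface carrier of glycine, alanine and proline, read 6.50 and 6.65 in the untreated clones, 7.50 and 7.51 under 2i, 7.51 and 7.87 in the ESC lines and 8.40 in MEFs. The clones were the lowest of the 7 untransduced arrays. It was 1.11 higher in ESCs (SE 0.21, limma adjusted p = 0.0261) and 0.93 higher under 2i, the latter short of the threshold (SE 0.21, adjusted p = 0.0683). The ESC call was lost with only the 4 compared arrays (adjusted p = 0.0948), and without either partial array or either 2i array (0.0671 to 0.0955). Slc36a3 differed by 0.11 and 0.47 and passed neither test.

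Among the light chains that pair with the heavy chain Slc3a2, the y+L exchangers Slc7a6 and Slc7a7 moved apart. Both export cationic amino acids in exchange for neutral ones. Slc7a6 read 9.69 and 9.98 in the untreated clones, 8.67 and 8.60 under 2i, 8.13 and 8.01 in ESCs and 8.50 in MEFs. By this brightest probe set the clones were above all other untransduced arrays. It fell by 1.20 under 2i (SE 0.20, limma adjusted p = 0.0336, and 0.0894 with the clone as a replicate block). It was also 1.76 lower in ESCs (log2 fold change -1.76, SE 0.20, adjusted p = 0.00619). The 2i call was also lost without any 1 of the 4 compared arrays (adjusted p 0.064 to 0.273). On the transduced arrays it stayed between 9.40 and 9.71. The other Slc7a6 probe set gave -0.94 under 2i and -1.19 in ESCs. It read 9.25 and 9.59 in 2B1 and 5C5 and 9.28 in MEFs, so MEFs were not below both clones there.

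Slc7a7 read 7.19 and 7.09 in the untreated clones, 9.72 and 9.39 under 2i, 8.45 and 9.89 in Nanog-GFP and EBRTcH3 ESCs and 6.18 in MEFs. The 2i and ESC arrays all lay above the clones. It was 2.03 higher in ESCs (4.08-fold, SE 0.49, limma adjusted p = 0.0494), and 2.41 higher under 2i, just short of the threshold (SE 0.49, adjusted p = 0.0543). Both values sit at the threshold: the ESC call was kept in 6 of 14 alternatives and the 2i difference was called in 4 of 15.

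The remaining exchanger subunits did not pass the test. The heavy chain Slc3a2, shared by these exchangers, read 12.26 and 12.33 in the untreated clones, 12.72 and 12.80 under 2i, 11.58 and 12.25 in ESCs and 11.41 in MEFs (0.46 for 2i against partial iPSCs, limma adjusted p = 0.37). Slc7a5, its partner for leucine and other large neutral amino acids, read 11.28 and 11.75, 12.13 and 12.06, 11.02 and 11.92, and 10.58 in the same order (0.58, adjusted p = 0.397). For both genes the 2i arrays were the highest and the MEF array the lowest of the 7 untransduced arrays. Slc7a11, the cystine-glutamate exchanger that feeds glutathione synthesis, read 7.57 and 6.05 in the clones, 5.44 and 5.63 under 2i, 3.10 and 5.76 in Nanog-GFP and EBRTcH3 ESCs and 3.97 in MEFs. The value of 3.10 lies below that array's 25th percentile (3.89). The ESC difference of -2.38 (SE 0.96, adjusted p = 0.16) was called only without the EBRTcH3 array (-3.71, adjusted p = 0.0345). Its other probe set differed in the ESC lines, at 4.49 and 4.24.

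The cationic amino acid carriers of the Slc7 family, which take up arginine, lysine and ornithine, also passed no test. Slc7a1 read 10.67 and 11.92 in 2B1 and 5C5, 12.28 and 12.46 under 2i, 10.72 and 12 in Nanog-GFP and EBRTcH3 ESCs and 10.77 in MEFs. Slc7a3 read 12.36 and 11.23, 11.47 and 11.80, 10.83 and 11.94, and 6.96 in the same order. All stem cell and partial arrays were high for Slc7a3, and MEFs were far below them. Under 2i the difference was 1.07 for Slc7a1 (95% interval -0.39 to 2.54) and -0.16 for Slc7a3 (-1.49 to 1.17). Their ESC differences were 0.07 and -0.41, with limma adjusted p = 0.947 and 0.627.

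In the Slc1 family, the glutamine carrier Slc1a5 read 7.04 and 7.60 in the clones, 8.17 and 8.36 under 2i, 7.17 and 8.17 in the ESC lines and 6.01 in MEFs. The 2i difference of 0.94 did not pass the test (SE 0.40, limma adjusted p = 0.228), and the ESC difference was 0.35 (adjusted p = 0.574). Slc1a4, a carrier of alanine, serine and cysteine, differed by 0.78 under 2i (SE 0.56, adjusted p = 0.465). Slc43a1, a carrier of large neutral amino acids, differed by 1.40 under 2i and 1.52 in ESCs (adjusted p = 0.142 and 0.0818). Slc43a3 differed by 2.47 between 2i iPSCs and ESCs (7.84 and 7.87 against 6.05 and 4.73), with an adjusted p of 0.0545. The fibroblast markers moved in the same direction there, as given for Slc36a4, and their part was not tested.

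**Figure D2:**
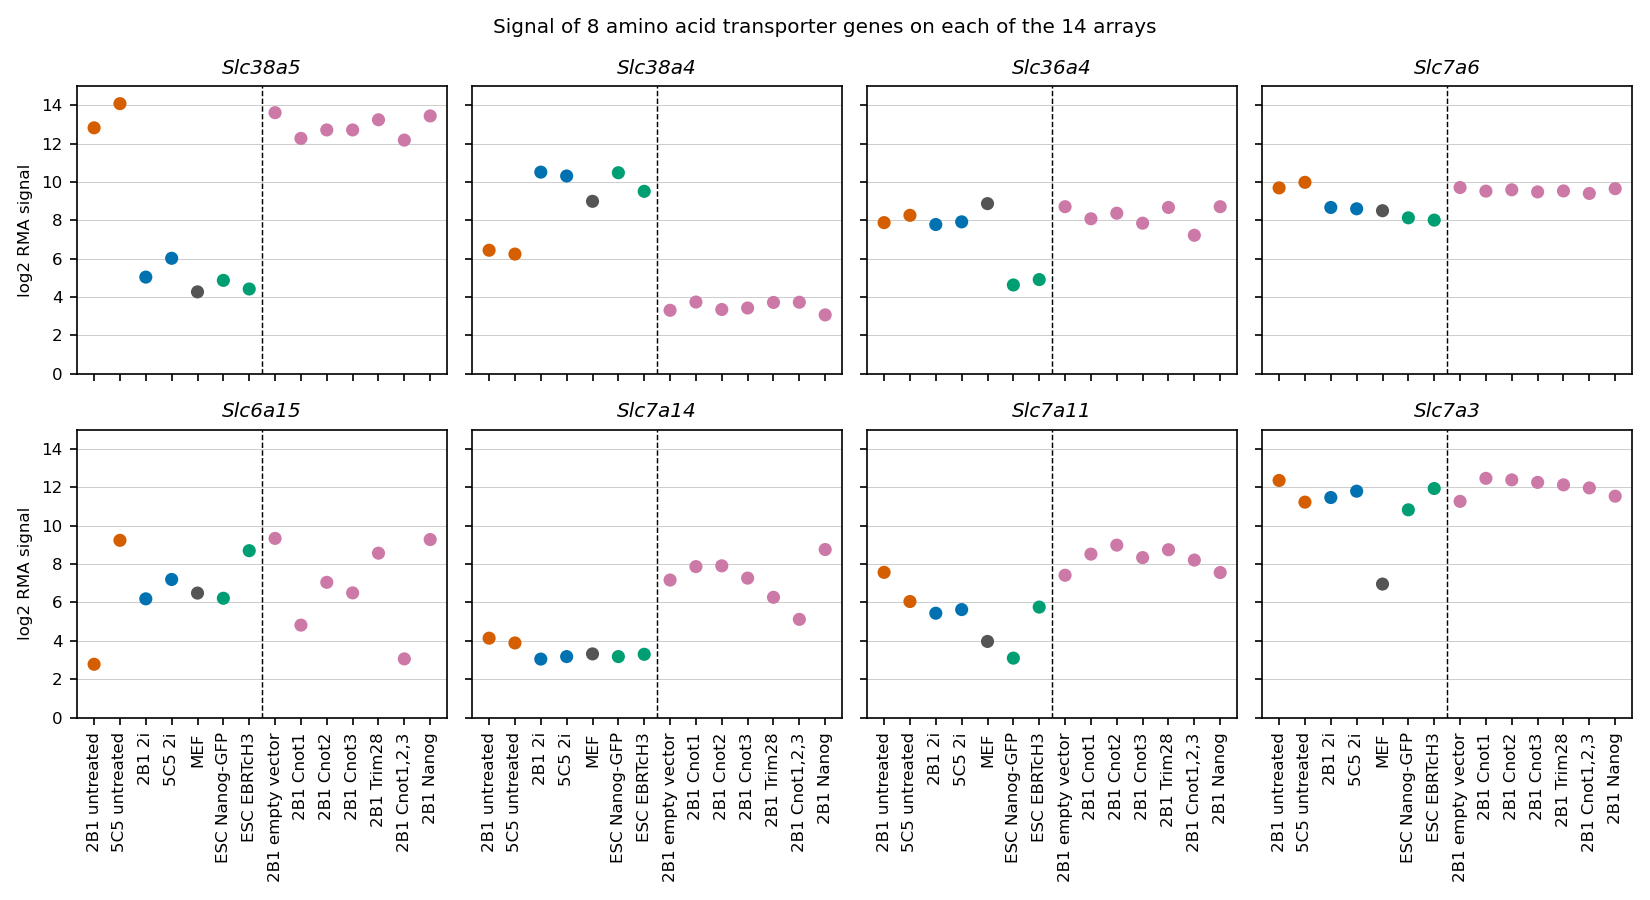
Log2 RMA signal (y axis, from 0) of 8 transporter genes on each of the 14 arrays (x axis, 1 point per array), coloured by group, with a dashed line between the 2 blocks of arrays. Slc38a5 lies at 12.18 or above on all partial iPSC arrays and at 6.02 or below on the other 5, and Slc6a15 runs from 2.78 to 9.34 among 2B1 arrays.

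Slc6a15, a sodium-coupled carrier of branched-chain amino acids and proline, passed no test, and its clones differed by more than its groups did. It read 2.78 in untreated 2B1 and 9.24 in untreated 5C5, 6.19 and 7.20 in their 2i iPSCs, 6.22 in Nanog-GFP and 8.70 in EBRTcH3 ESCs and 6.49 in MEFs. The untreated clones were the lowest and the highest of the 7 arrays. The value in untreated 2B1 lies below that array's 25th percentile (3.82), where signal cannot be told from background, so each difference from it depends on the background. The 2i difference was 0.69 (SE 2.17, limma adjusted p = 0.886, 95% interval -4.81 to 6.18). Under 2i the gene was 3.41 higher in 2B1 (2.37 counted from that percentile) and 2.04 lower in 5C5 (log2 difference -2.04). Of 4 tested markers of neural cells, 3 moved in the same direction in 5C5 under 2i: Sox1 (-3.53), Pax6 (-3.25) and Nes (-1.37). The other, Tubb3, moved the opposite way (2.39). Of 2 tested trophoblast markers, Krt8, also an epithelial keratin, differed by -2.97 and Tfap2c by 3.74. In 2B1, Sox1, Pax6, Nes and Krt8 differed by -0.82, -0.42, -0.45 and 1.54, Tubb3 by 3.31 and Tfap2c by 1.08. The part of these cells in the Slc6a15 values was not tested. Slc7a2, a cationic amino acid carrier, behaved in the reverse way by its brightest probe set, with 7.08 in 2B1 and 4.22 in 5C5 before and 5.28 and 6.62 under 2i.

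Between the untreated clones, 9 of 37 members (24.3%) were at least 2-fold apart, against 10.6% of all tested genes. In 5C5, Slc6a15 (6.47, or 5.42 counted from the 25th percentile of the 2B1 array), Slc6a9 (1.45), Slc38a1 (1.43), Slc38a5 (1.26) and Slc7a1 (1.25) were higher on the log2 scale (13.5% of members, against 6.22% of all genes). Slc7a2 (-2.86), Slc7a11 (-1.52), Slc43a2 (-1.52) and Slc7a3 (-1.13) were lower (10.8%, against 4.41%). Slc6a9 encodes a glycine carrier and Slc43a2 a carrier of large neutral amino acids. Between the 2i iPSCs of the same clones, 2 members (5.41%) were 2-fold apart, Slc6a15 and Slc7a2, against 1.73% of all genes. Both were higher in 5C5, as were 1.25% of all genes, and 0.482% were lower. These are single arrays without replicates. The other probe sets of Slc7a2 were dim, with means of 3.26, 3.02 and 2.64 over the 14 arrays. They gave -0.23, -0.23 and -0.03 between the untreated clones and 0.20, 0.27 and -0.03 between the 2i iPSCs. In the untreated clones Krt8 was 4.16, Pax6 2.31, Sox1 2.28 and Nes 1.10 higher in 5C5 too, 3 of 4 tested neural markers being at least 2-fold higher. The mean of the 5 neural markers was 6.17 to 7.48 in the partial clones, 6.29 to 6.41 under 2i and 6.35 to 7.33 on the transduced arrays, and that of 4 trophoblast markers 5.53 to 5.95, 6.05 to 6.18 and 5.27 to 6.10. Of the 4 trophoblast markers, 1 lay below the 25th percentile on each of these arrays, and Tfap2c was lower in 5C5 (-2.70). Their part in the differences between the clones was not tested.

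The 2 ESC lines differed in 13 of 37 members (35.1%) by at least 2-fold, against 15.8% of all genes. In EBRTcH3, 10 members (27%) were higher, against 6.77% of all genes, and 3 (8.11%) were lower, against 9.04%. The higher ones were Slc7a11 (2.66, or 1.87 counted from the 25th percentile of the Nanog-GFP array), Slc6a15 (2.47), Slc6a9 (1.87), Slc1a4 (1.64), Slc38a6, Slc38a1, Slc7a7, Slc7a1, Slc7a3 and Slc1a5, down to a difference of 1. The lower ones were Slc43a3, Slc7a8, an exchanger of neutral amino acids, and Slc43a1. Of the 10 higher members, 8 had a second probe set, which was also at least 2-fold higher for Slc38a6, Slc7a1 and Slc7a7 and not for Slc1a4, Slc1a5, Slc38a1, Slc6a9 and Slc7a11. For Slc7a11 it read 4.49 and 4.24. The median member difference was 0.36, beside -0.04 for all tested genes. The lines differ in strain (C57BL/6 and 129sv) and in the Nanog-GFP transgene, so these cannot be told apart.

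The amino acid response list (15 genes with ATF4 and its known targets, all tested) was also higher in EBRTcH3. Of these, 13 were at least 2-fold higher there, against 6.77% of all tested genes, and none was lower, against 9.04%. The median difference was 2.13, beside -0.04 over all tested genes. Stc2, a secreted stress protein, read 5.25 in Nanog-GFP and 9.42 in EBRTcH3 ESCs. Chac1, which degrades glutathione, read 7.14 and 11.29, and Nupr1, a stress-induced chromatin protein, 8.24 and 12.11. Of 13 tested genes of serine, glycine and one-carbon metabolism, 6 were higher and none lower (median 0.87), among them Shmt2 (1.73), Phgdh (1.66) and Psph (1.20). Of 18 tested cytosolic aminoacyl-tRNA synthetases, 3 were higher (median 0.68). Between the untreated clones, 5 of the 15 amino acid response genes (Atf5, Atf3, Trib3, Chac1 and Cebpg) were at least 2-fold higher in 5C5, against 6.22% of all genes. None of the 15 was lower, against 4.41%, and their median was 0.56. The part of this response in the carriers' levels was not tested.

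**Figure D3:**
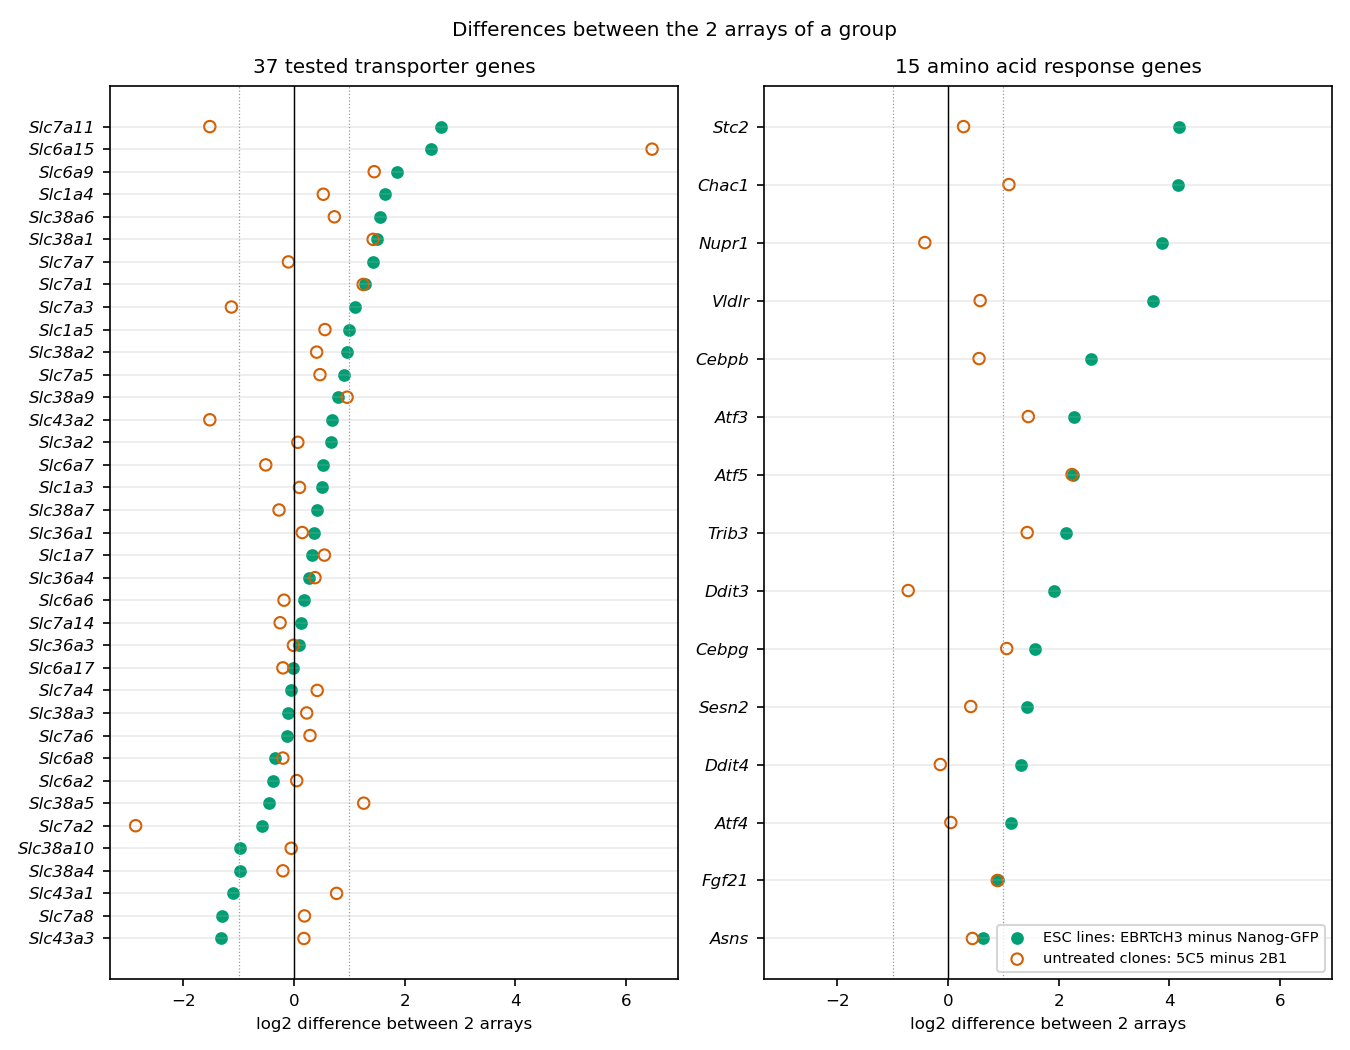
Log2 differences between the 2 ESC lines (filled) and between the 2 untreated clones (open) for the 37 tested transporter genes and 15 amino acid response genes, 1 array per line or clone, with dotted lines at a 2-fold difference. All 15 response genes lie above 0 between the ESC lines, with a median of 2.13, and 10 transporter genes lie at or above 1.

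Slc38a1, Slc6a15, Slc6a9 and Slc7a1 were at least 2-fold higher both in EBRTcH3 than in Nanog-GFP ESCs and in 5C5 than in 2B1. They made up 40.0% of the 10 members higher in EBRTcH3 and 80.0% of the 5 higher in 5C5. Over all tested genes, 159 were higher in both, 18.6% and 20.2% of the respective genes. For Slc6a9 and Slc38a1 the shared difference rests on the brighter probe set. The second probe set of Slc6a9 differed by 0.59 between the ESC lines and 0.30 between the clones, and that of Slc38a1 by 0.48 and 0.73. The second probe set of Slc7a1 gave 1.16 and 1.09, and Slc6a15 lay below the 25th percentile in 2B1.

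ATF4 binds, with C/EBP partners, an element whose core is TGATGNAA (CARE). It was searched on both strands of the same windows of 300 bases. It was found for 4 of the 41 members (9.76%), against 4.51% of 27025 genes, and in 5 of 62 member windows (8.06%), against 3.97% of 32851. Of the 10 members higher in EBRTcH3, 6 had a window and 3 of these held the element (Slc7a11, Slc1a4 and Slc7a7), while 0 of the 18 other tested members with a window did. The fourth, Slc6a21, was dim. A match is a description of these letters and not evidence of binding. The split of members rests on 1 array per line and on the brightest probe sets. The other Slc7a11 probe set differed by -0.25 between the lines. Response genes were also higher in untreated 5C5 than in 2B1. There the 3 members differed by -1.52 (Slc7a11), 0.53 (Slc1a4) and -0.10 (Slc7a7). For 2i against partial iPSCs they differed by -1.28, 0.78 and 2.41 in the same order. A part of the element in the difference between the lines was not tested. The 3 sequences are shown because these genes were higher in the line with the higher amino acid response genes. Each runs from 160 bases before to 20 after the start, on the minus strand of GRCm38.p6 (RefSeq), with the element in capitals. They lie at chr3:50443594-50443773 (Slc7a11), chr11:20332694-20332873 (Slc1a4) and chr14:54417925-54418104 (Slc7a7, 1 of 5 annotated windows).
Slc7a11 promoter: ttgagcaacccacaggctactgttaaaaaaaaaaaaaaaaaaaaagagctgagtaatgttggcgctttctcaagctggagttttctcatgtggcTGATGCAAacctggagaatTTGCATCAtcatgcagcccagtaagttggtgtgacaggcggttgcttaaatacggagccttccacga
Slc1a4 promoter: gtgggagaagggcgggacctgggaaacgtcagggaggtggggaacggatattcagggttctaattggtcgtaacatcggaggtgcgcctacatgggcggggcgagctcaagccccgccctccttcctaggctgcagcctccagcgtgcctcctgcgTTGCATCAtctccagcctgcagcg
Slc7a7 promoter: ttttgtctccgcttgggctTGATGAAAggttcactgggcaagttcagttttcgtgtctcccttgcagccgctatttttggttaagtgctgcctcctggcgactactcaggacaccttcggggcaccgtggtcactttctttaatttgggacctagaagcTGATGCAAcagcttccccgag
The elements begin 66 and 47 bases before the start of Slc7a11, 4 before that of Slc1a4 and 141 and 1 before that of Slc7a7. Both Slc7a11 elements lie in opposite orientations.

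Compared with both untreated partial clones, 9 of 37 members (24.3%) were at least 2-fold different in MEFs, against 21.3% of all genes, so the share was near the background. Slc38a4, Slc36a1, Slc38a10 and Slc6a17 were higher (10.8%, against 9.90%), and Slc38a5, Slc7a3, Slc7a11, Slc7a6 and Slc1a5 were lower (13.5%, against 11.3%). For Slc7a6 this rests on the brightest probe set, as the other read 9.28 in MEFs and 9.25 and 9.59 in the clones. Against all 6 other untransduced arrays, 3 members differed (8.11%, against 11.9% of all genes). Slc6a17, a vesicular carrier of neutral amino acids in neurons, was higher at 7.69 (2.7%, against 5.91%), and Slc7a3 (6.96) and Slc1a5 (6.01) were lower (5.41%, against 5.99%). The MEF array has no replicate.

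The transduced arrays differed from untreated 2B1 in 12 of 37 members (32.4%) when the empty vector array was set against the untreated one, against 16.8% of all genes. Of these, 6 members were higher (16.2%, against 4.68%) and 6 lower (16.2%, against 12.1%). After quantile normalization of all arrays 8 were higher (21.6%, against 6.22%) and 4 lower (10.8%, against 8.58%), with Slc1a4 and Slc36a4 gained and Slc43a2 and Slc7a3 lost. With arrays centred on the tested genes 9 were higher (24.3%, against 7.35%, with Slc38a5 gained too) and 4 lower (10.8%, against 7.45%). This crosses the 2 blocks, whose median difference over all tested genes was -0.27, and vector, culture and block cannot be told apart. Slc6a15 read 9.34 with empty vector against 2.78 untreated, a difference of 6.56 (6.75 after quantile normalization of all arrays and 6.84 with arrays centred on the tested genes). Counted from the 25th percentile of the untreated array, it was 5.52. Krt8 (4.98), Pax6 (1.8), Sox1 (1.61) and Tubb3 (1.59) were higher with empty vector too, Tfap2c was lower (-2.23), and their part was not tested. Slc7a14, a lysosomal relative of the cationic carriers, read 7.17 against 4.14, a difference of 3.03 (3.13 and 3.31). Slc38a4 was 3.13 lower (log2 difference -3.13, with -2.84 and -2.85 under the same alternatives, and -2.89 counted from the 25th percentile of the empty vector array), and Slc7a2 2.81 lower (-2.81, with -2.52 and -2.53). Slc43a3 was lower too (-1.86), and Slc7a3 was lower by more than 1 unit as deposited (-1.09) but not under those alternatives (-0.91 and -0.81).

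Within the transduced block, each array labelled with a factor was compared with the empty vector array, 1 array against 1, so none of these differences was tested and all share the empty vector array. The 5 arrays with Cnot or Trim28 cDNAs were made by retrovirus and those with empty vector and Nanog by stable integration, so factor and delivery cannot be told apart. The introduced genes did not check the labels. On its own array, Cnot2 differed from empty vector by -0.32 to 0.08 over 6 probe sets, Cnot3 by 0.06 and 0.30, Trim28 by -0.01 and -0.33 and Nanog by -0.99, and Cnot1 had no probe set of its own. Which part of each transcript these probe sets read was not analysed here.

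Slc6a15 was the member furthest from empty vector on the arrays labelled Cnot1, Cnot2, Cnot3 and Cnot123. It read 9.34 with empty vector, 9.28 with Nanog, 8.57 with Trim28, 7.05 with Cnot2, 6.50 with Cnot3, 4.82 with Cnot1 and 3.06 with Cnot123. The 4 arrays labelled with Ccr4-Not subunits were below the other 3. The differences were -4.52 for Cnot1, -2.29 for Cnot2, -2.83 for Cnot3 and -6.28 for Cnot123. The Cnot123 value lies below that array's 25th percentile (3.66), and counted from it the difference was -5.68. Other genes were lower on the same arrays: Krt8 differed by -3.68 with Cnot1, -2.28 with Cnot2, -2.12 with Cnot3 and -5.71 with Cnot123, and Pax6 by -1.88, -1.17, -1.63 and -2.28. Sox1 differed by -1.22 with Cnot1 and by less than 1 unit on the other 3, and Nes by less than 1 unit on all 4. Tubb3 was mixed, with -1.35 for Cnot1, -0.61 for Cnot2, -0.18 for Cnot3 and 0.46 for Cnot123. The trophoblast marker Tfap2c was higher on these arrays, by 1.92, 1.95, 1.74 and 1.99 in the same order. The part of cells with such markers was not tested. Slc38a5 was also lower there, by 1.34 with Cnot1 (log2 difference -1.34) and 1.43 with Cnot123 (-1.43).

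The array labelled Cnot123 had 8 of 37 members (21.6%) at least 2-fold lower and none higher, against 8.43% of all genes lower and 3.72% higher. Besides Slc6a15 and Slc38a5 these were Slc7a14 (-2.05), Slc43a1 (-1.80), Slc36a4 (-1.50), Slc1a4 (-1.34), Slc1a3 (-1.14) and Slc6a9 (-1.10). Slc1a3 is a glutamate carrier. Its second probe set differed by more, with 7 on the empty vector array and 3.61 with Cnot123 (-3.39), and by -3.33, -2.88 and -2.83 with Cnot1, Cnot2 and Cnot3. That probe set was also lower with Trim28 (-1.90) and Nanog (-0.74). It was 2.46 higher in untreated 5C5 than in untreated 2B1, and 3.42 higher with empty vector than in untreated 2B1. The second probe set of Slc6a9 differed by -0.07 with Cnot123, and by -0.18 with Cnot3. The median member difference was -0.30, beside -0.01 over all genes. On this array 5 of the 15 amino acid response genes were also at least 2-fold lower (median -0.94), where 8.43% of all genes were, and their part was not tested.

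The array labelled Cnot1 had 5 members (13.5%) 2-fold from empty vector, against 10% of all genes. Slc7a3 (1.21) and Slc7a11 (1.10) were higher (5.41%, against 4.15%) and Slc6a15, Slc38a5 and Slc1a3 (-1.10) lower (8.11%, against 5.87%). The array labelled Cnot2 had 3 (8.11%, against 6.75%), Slc7a11 (1.57) and Slc7a3 (1.13) higher (5.41%, against 2.87%) and Slc6a15 lower (2.7%, against 3.89%). The array labelled Cnot3 had 2 (5.41%, against 7.68%), Slc6a15 and Slc6a9 (-1.19), both lower (5.19% of all genes were lower and 2.49% higher). These 3 shares were near the background.

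The array labelled Trim28 had 2 members (5.41%, against 2.49%), Slc7a11 (1.33) and Slc7a8 (1.04), both higher (0.963% of all genes were higher and 1.52% lower). The array labelled Nanog had 2 (5.41%, against 1.43%), Slc7a14 (1.59) and Slc7a7 (1), both higher (0.561% of all genes were higher and 0.869% lower). Slc7a11 read 7.42 with empty vector, 7.56 with Nanog, 8.21 with Cnot123, 8.34 with Cnot3, 8.52 with Cnot1, 8.75 with Trim28 and 8.99 with Cnot2. The 2 arrays of stable integration were below the 5 of retroviral delivery for this gene, and also for Slc7a3 (11.27 and 11.54, against 11.97 to 12.47). Slc7a14 ran from 5.12 with Cnot123 and 6.27 with Trim28 to 8.76 with Nanog, and the arrays of empty vector (7.17), Cnot3 (7.27), Cnot1 (7.87) and Cnot2 (7.91) lay between.

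**Figure D4:**
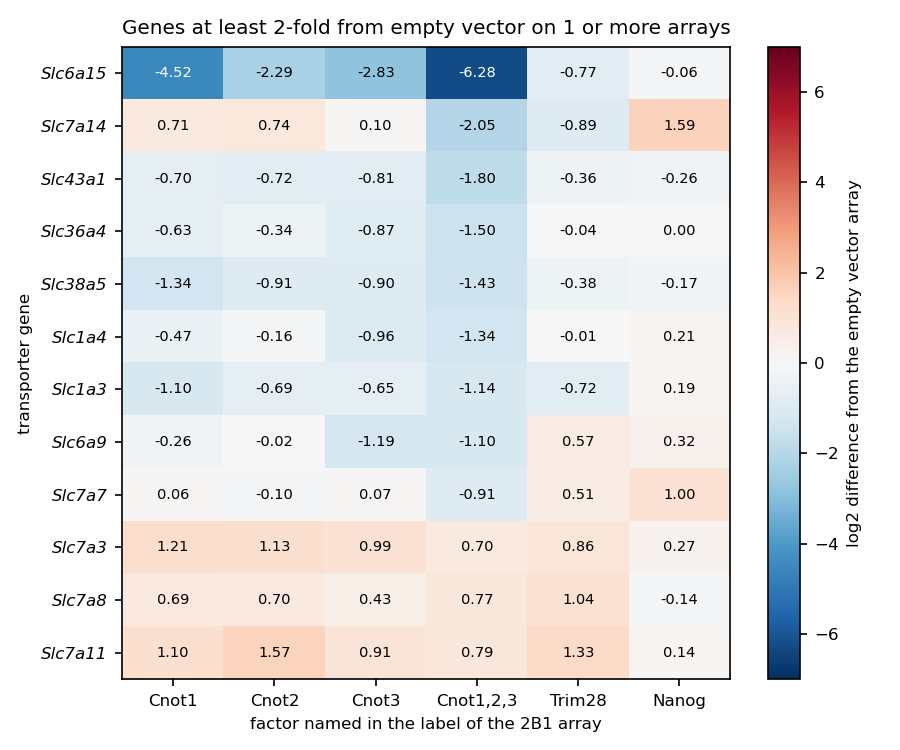
Log2 differences from the empty vector array (colour and printed value) of the 12 transporter genes that were at least 2-fold away on 1 or more of the 6 arrays of transduced 2B1 cells, 1 array per factor, with no test. Slc6a15 runs from -6.28 with Cnot123 to -0.06 with Nanog, and Slc7a11 is above 0 on all 6 arrays.

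Across all 14 arrays, 32 of the 37 tested members varied by at least 1 log2 unit and 17 by at least 2, with a median range of 1.97. Of all 12663 tested genes, 10400 varied by at least 1 unit and 4941 by at least 2, with a median range of 1.67. These ranges include the shift between the blocks.

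Of the 21 dim members, 18 stayed between 2.52 and 5.31 on every array by their brightest probe set, with ranges of at most 1.5. One of these was Slc1a1, a carrier of glutamate and cysteine, and its other 2 probe sets differed more. One read 3.42 and 3.11 in the clones, 4.19 and 5.27 under 2i and 5.81 and 6.12 in ESCs (2.70 for ESCs against partial iPSCs), and the other 3.10 and 3.23, 4.37 and 5.53, and 5.60 and 5.75 (2.51). The clones were the lowest of these 6 arrays on both, and below the 25th percentile, while the brightest probe set gave 0.63. The other 3 stood out on single arrays or in 1 group. Slc1a6, a glutamate carrier of neurons, read 7.52 in MEFs and 3.76 to 4.90 on the 13 other arrays. Slc6a14, a broad carrier of neutral and cationic amino acids, read 5.67 in untreated 5C5 and 2.85 to 3.68 on the 13 others, and its other probe set read 7.62 in 5C5. Slc6a16, an orphan carrier, read 4.84 and 5.89 in the 2i iPSCs and 2.94 to 4.40 on the 12 others. Dim genes were not tested in the main comparisons.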

How the data were processed

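The deposited values are log2 probe set signals that the authors made with RMA and the affy package, per the submitters' processing notes; no source used here gives versions. Of 45101 probe sets, 64 were controls, 34945 had 1 gene, 932 several and 9160 none in the platform annotation. The 58 members matched RefSeq (GRCm38.p6) by gene ID. Each gene was read by its brightest probe set over 14 arrays, and 12663 genes passed the filter. Partial iPSCs, 2i iPSCs and ESCs (2 arrays each) were fitted together by lmFit and eBayes of limma 3.58.1, run in R 4.3.3 (3 residual and 2.25 prior degrees of freedom, two-sided, Benjamini-Hochberg over all tested genes), and the script was tested on simulated data. The clone pairs its untreated and 2i arrays (correlation of their deviations 0.11), which was an alternative block. Single arrays were described by log2 differences of at least 1. The number of arrays limits the precision. Named members were those called, a set of main carriers, and the largest differences of single arrays. The members and lists were chosen with earlier results of these data known.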

Additional observations from a re-analysis of the deposited data

Results flagged for a closer look

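The change from untreated to 2i cells ran in opposite directions in the 2 clones for 2 members, each by at least 1 log2 unit. Slc6a15 was 3.41 higher under 2i in 2B1 and lower in 5C5 (-2.04), a difference between the clones of 5.46. Its value in untreated 2B1 (2.78) lies below that array's 25th percentile (3.82). Counted from that percentile, the change in 2B1 was 2.37 and the difference between the clones 4.42. Slc7a2 was lower under 2i in 2B1 (-1.80) and 2.40 higher in 5C5, a difference of -4.20, by its brightest probe set alone. Its other, dimmer probe sets gave -0.27, -0.33 and -0.34 in 2B1 and 0.16, 0.17 and -0.34 in 5C5. With 1 array per clone and condition, the difference was not tested. No group held 4 to 10 arrays, so no array was examined as an outlier within its group.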

How the results depend on the processing

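The 4 members called between 2i and partial iPSCs became 7 with only the 4 compared arrays (adding Slc36a1, Slc43a3 and Slc7a7), 2 with the clone as a replicate block (losing Slc38a7 and Slc7a6; the pairing changed no other member's call) and 1 to 7 without 1 array. The 7 called in ESCs against partial iPSCs became 4 with only the 4 compared arrays (losing Slc36a1, Slc38a3 and Slc7a7) and 4 to 8 without 1 array. The 1 called between 2i iPSCs and ESCs became 0 to 2 without 1 array. When an array is left out, the fit gives the lone array of its group the spread of the others. Over all genes, the 760 calls of the first comparison became 1396 with 4 arrays, 297 with the clone block and 43 to 1396 without 1 array; the 2015 of the second became 780 with 4 arrays; and those of the third ran from 0 to 786 without 1 array. Arrays centred on the tested genes, chosen after seeing the data, moved the median of all genes by 0.17 in the second comparison and -0.15 in the third, and calls of the second split 1063 higher to 1015 lower (51.2% higher) in place of 771 to 1244 (38.3%). The 2 members at 2-fold with Nanog became 1 with the mean of all probe sets, and the 2 between the 2i clones became 1 with that mean and 1 after quantile normalization.

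The fold changes of the called members in their comparisons and of 10 main carriers in all comparisons gave 573 values under alternatives, of which 517 kept direction and side of the threshold, 35 lost the call, 1 gained it and 20 changed sign, all 20 uncalled. Uncalled members gained a call in some alternatives: Slc7a7 (4 of 15), Slc36a1 and Slc43a3 (3 of 15 each) under 2i, Slc38a7 (3 of 14), Slc7a14 (2 of 13), Slc43a1, Slc43a3 and Slc7a11 (1 of 14 each) in ESCs against partial iPSCs, and Slc43a3 (2 of 14) in 2i iPSCs against ESCs. With centring on the tested genes, Slc7a5 in ESCs against partial iPSCs turned to 0.12. Without 1 array, 2i against partial iPSCs ranged from -2.55 to 3.92 for Slc6a15 and from -0.72 to 0.41 for Slc7a3. ESCs against partial iPSCs ranged from -1.78 to 4.68 for Slc6a15, -0.49 to 0.40 for Slc7a5, -0.15 to 0.85 for Slc1a5, -0.57 to 0.71 for Slc7a1, -0.97 to 0.16 for Slc7a3, -0.22 to 1.28 for Slc38a1 and -0.26 to 0.69 for Slc38a2. 2i iPSCs against ESCs ranged from -2.00 to 0.47 for Slc6a15, -0.23 to 2.43 for Slc7a11, -0.30 to 0.80 for Slc7a3, -0.33 to 1.17 for Slc38a1 and -0.31 to 0.64 for Slc38a2. The causes were not tested.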

Other observations

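Few genes of amino acid use outside the carrier families were called, beside 6.00% of all tested genes in 2i against partial iPSCs, 15.9% in ESCs against partial iPSCs and 3.85% in 2i iPSCs against ESCs. Gldc, of the glycine cleavage system, rose by 3.00 under 2i (SE 0.36, limma adjusted p = 0.0162) and was 3.71 higher in ESCs than in partial iPSCs (SE 0.36, adjusted p = 0.00443), as the only called gene of 13 tested in serine, glycine and one-carbon metabolism. Of 12 tested other carriers, Slc16a10, an aromatic amino acid carrier, and Slc25a13, a mitochondrial aspartate-glutamate carrier, rose under 2i (1.17 and 0.98, adjusted p = 0.0289 and 0.0433). Slc25a13 and Slc66a1, a lysosomal exporter of cationic amino acids, were higher in ESCs (1.21 and 1.17, adjusted p = 0.0143 and 0.0478). Of 15 tested genes of glutamine, glutamate and branched-chain metabolism, Bckdha, of the branched-chain keto acid dehydrogenase, was called. It was 1.13 higher in ESCs than in partial iPSCs (adjusted p = 0.0447) and lower in 2i iPSCs than in ESCs (-1.53, adjusted p = 0.0459). Of 23 tested genes of amino acid sensing by mTORC1, only Tfeb, a lysosomal transcription factor, was called, 0.95 higher in ESCs than in partial iPSCs (adjusted p = 0.043). Of the 15 amino acid response genes, Atf3 alone was called, lower in ESCs than in partial iPSCs (-3.86, SE 0.85, adjusted p = 0.0405). Between 2i and partial iPSCs, 14 of the 15 were above 0 (median 0.72), beside 52.4% of all genes (median 0.03), and none passed limma's test (2 at an unadjusted p below 0.05). Between 2i iPSCs and ESCs, all 15 were above 0 (median 1.45), beside 50.3% (median 0.00), with none called and 2 at an unadjusted p below 0.05. In single clones, 7 of 15 were at least 2-fold higher under 2i in 2B1 and 7 of 15 in 5C5, against 11.2% of all genes in each. None of the 18 synthetases or of the 8 tested genes of threonine, methionine and proline metabolism passed the limma test in any of the 3 comparisons. At an unadjusted p below 0.05 there were 2 synthetases in 2i against partial iPSCs and 2 genes of the latter list in ESCs against partial iPSCs.

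On the transduced arrays, Rragd, a GTPase that signals amino acids to mTORC1, was lower than with empty vector, with log2 differences of -1.91 with Cnot1, -1.21 with Cnot2, -1.44 with Cnot3 and -2.02 with Cnot123, and it was 2.54 higher in untreated 5C5 than in 2B1. Amino acid response genes were at least 2-fold lower on the Cnot3 array in 7 of 15 cases (median -0.87, where 5.19% of all genes were lower), led by Atf5 (-2.18) and Atf3 (-2.13), and on the Cnot1 array in 3 of 15 (median -0.44, where 5.87% were lower). These are single arrays with no test.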
